A study of Mus musculus with 6 samples.

Results

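Collagens and laminins are the structural proteins of the extracellular matrix. The genes described here are the 55 gene rows, of 36210 gene rows in the expression table, whose symbol is that of a collagen chain (Col, a number, a, a number; 44 genes) or of a laminin chain (Lama, Lamb or Lamc with a number; 11 genes). The rule uses names only and no measured value, but these families were picked for description with earlier results of these data known. All mice were APP/PS1, a transgenic line that forms amyloid plaques from mutant human APP and presenilin transgenes, and all were 8 months old. AVE0991, a synthetic agonist of the Mas receptor, was injected into the peritoneum at 10 mg per kg once a day for 30 days, and vehicle mice received sterile saline on the same schedule. The labels give 3 libraries per group and name the cells as adult astrocytes from brain. Whether the libraries stem from different animals is not stated, so the spread behind each p-value may be technical, and all comparisons are among APP/PS1 mice with no wild-type group.

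Each collagen is a triple helix of alpha chains, and the chains that share a helix are encoded by separate genes. Fibrillar collagens form cross-linked cables in meninges and vessel walls, whereas type IV collagen and laminins, which are heterotrimers of 1 alpha, 1 beta and 1 gamma chain, form the sheet-like networks of basement membranes. In brain, basement membranes lie between endothelial cells, pericytes and astrocyte end-feet and under the pia. Astrocytes are known to make laminin with the alpha-1 and alpha-2 chains, endothelial cells laminin with the alpha-4 and alpha-5 chains, and perivascular and meningeal fibroblasts most type I collagen.

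The libraries held 44583274 to 50066615 counts on gene rows, and the collagens and laminins held 0.159% to 0.194% of them. Transcripts of several brain cell types were present in every library. CPM are counts scaled to the TMM size of each library. The summed level of 12 astrocyte markers was 6928, 8592 and 8781 CPM in AVE0991 replicates 1, 2 and 3 and 7454, 6118 and 6720 CPM in vehicle replicates 1, 2 and 3. The summed level of 11 neuron markers was 4921 to 5329 CPM in AVE0991 libraries and 5155 to 5950 CPM in vehicle libraries. AVE0991 replicates 2 and 3 stood apart in 10 markers of cerebellar granule cells, whose summed level was 271, 2247 and 2191 CPM in the AVE0991 libraries and 293.7, 277.9 and 239.1 CPM in the vehicle libraries. Class medians and the fold changes that rest on these libraries are therefore also given with both of them left out, which leaves 1 AVE0991 library. Since the RNA is bulk RNA, fewer cells of a type and less RNA per cell cannot be told apart.

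Levels of different genes were compared in the deposited FPKM, which are counts scaled by transcript length and library depth. Leaving Col19a1 aside, the most abundant member was Lamb2, the beta-2 laminin chain, at 11.65 ± 2.58 FPKM in AVE0991 and 8.587 ± 1.44 FPKM in vehicle libraries (SD, n = 3 each). It was followed by Col1a2, a type I collagen chain, at 10.78 ± 3.08 FPKM in AVE0991 and 7.04 ± 1.04 FPKM in vehicle libraries. Next came Col25a1, a membrane collagen of neurons, at 4.44 ± 2.71 FPKM in AVE0991 and 8.59 ± 1.24 FPKM in vehicle libraries, and Lamc1, the gamma-1 laminin chain, at 6.46 ± 1.07 FPKM in AVE0991 and 6.14 ± 0.681 FPKM in vehicle libraries. Across libraries the ranges of neighbours in this order overlapped. The libraries of Lamb2 ran from 7.67 to 14.2 FPKM and those of Col1a2 from 6.07 to 13.3 FPKM. Those of Col25a1 ran from 2.61 to 9.39 FPKM and those of Lamc1 from 5.49 to 7.6 FPKM. Within every library Lamb2 lay above Col1a2, whereas the order of Col1a2 and Col25a1 and that of Col25a1 and Lamc1 changed between libraries. Among laminin alpha chains Lama2, the chain of the astrocyte and pericyte basement membrane, was the highest at 4.19 ± 1.2 FPKM in AVE0991 and 3.66 ± 0.319 FPKM in vehicle libraries. Lama4 and Lama5, the endothelial chains, each averaged under 1.4 FPKM in both groups. Lama1, the other chain known from astrocytes, averaged 1.52 ± 0.346 FPKM in AVE0991 and 1.07 ± 0.132 FPKM in vehicle libraries. The summed level of the laminins was 30.3, 38.6 and 37.3 FPKM in AVE0991 libraries and 31.0, 36.6 and 28.7 FPKM in vehicle libraries. That of the collagens without Col19a1 was 63.6, 81.3 and 76.3 FPKM in AVE0991 libraries and 64.0, 77.9 and 62.9 FPKM in vehicle libraries. For both sums the groups overlapped.

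**Figure D1:**
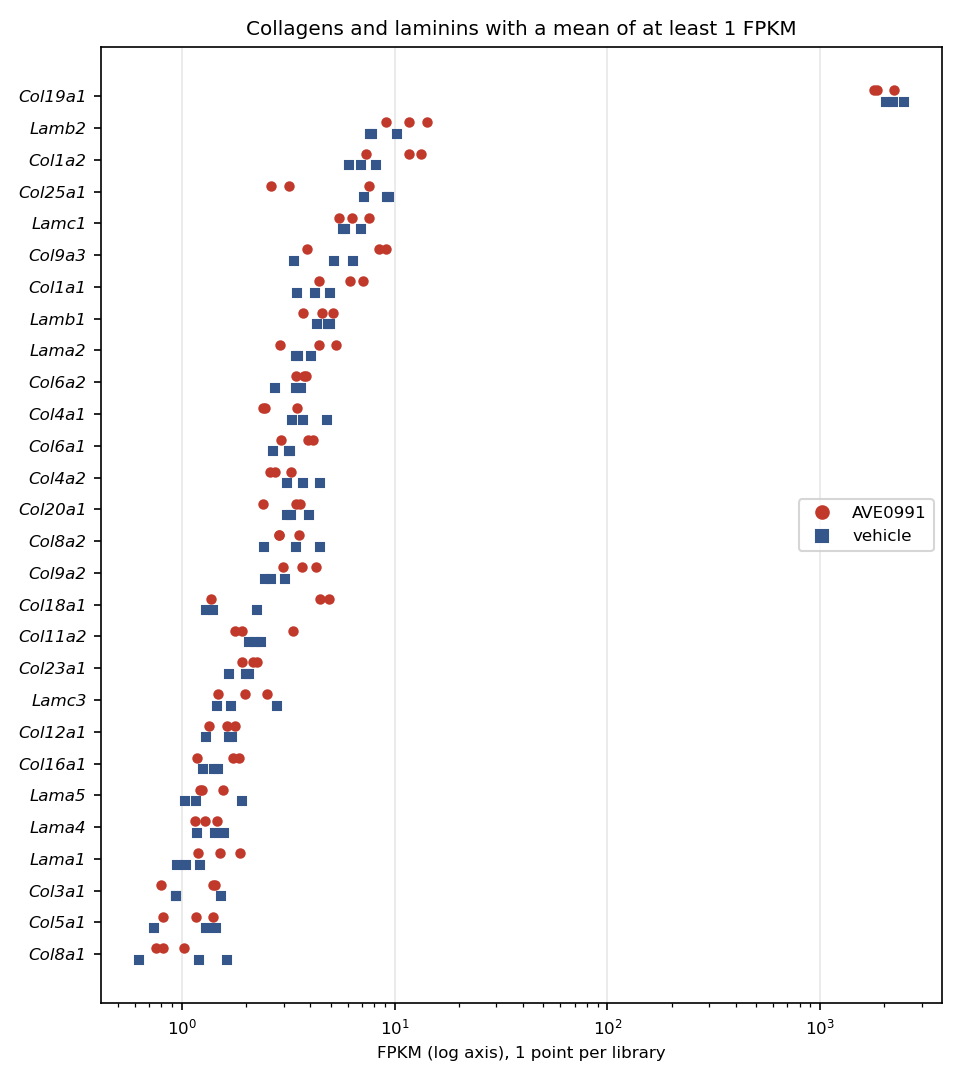
Deposited FPKM (log axis) of collagens and laminins with a mean of at least 1 FPKM over the 6 libraries, 1 point per library, AVE0991 as circles above vehicle as squares, ordered by mean. Col19a1 stands far to the right of all the others, Lamb2 and Col1a2 follow, and for most genes the points of both groups overlap.

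Col19a1, a minor collagen that sits on the surface of fibrils, was listed at 1955 ± 225 FPKM in AVE0991 and 2234 ± 221 FPKM in vehicle libraries, over 100 times the next member. Its level in CPM was 1149, 972.5 and 1018 in AVE0991 libraries and 1075, 1228 and 1108 in vehicle libraries, with overlap between the groups (log2 fold change of AVE0991 over vehicle -0.12, standard error, SE, 0.12, adjusted p = 0.576). A count divided by its FPKM was scaled in each library to give the length the authors' values imply. The scale was the median, over 8887 well-covered genes, of that quotient per annotated base. For Col19a1 the implied length was 570 bases, against 5441 bases for its longest annotated transcript, a ratio of 0.105. The other members with enough counts had a ratio of 0.738 to 1.23, and the quartiles of the 8887 genes lay at 0.804 and 1.069. The scaling itself set the median ratio of those genes near 1. The values of Col19a1 thus imply a far shorter feature than the annotated collagen transcript, and its level is not read as that of the collagen. Without it the members held 0.0522% to 0.0672% of the counts.

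**Figure D2:**
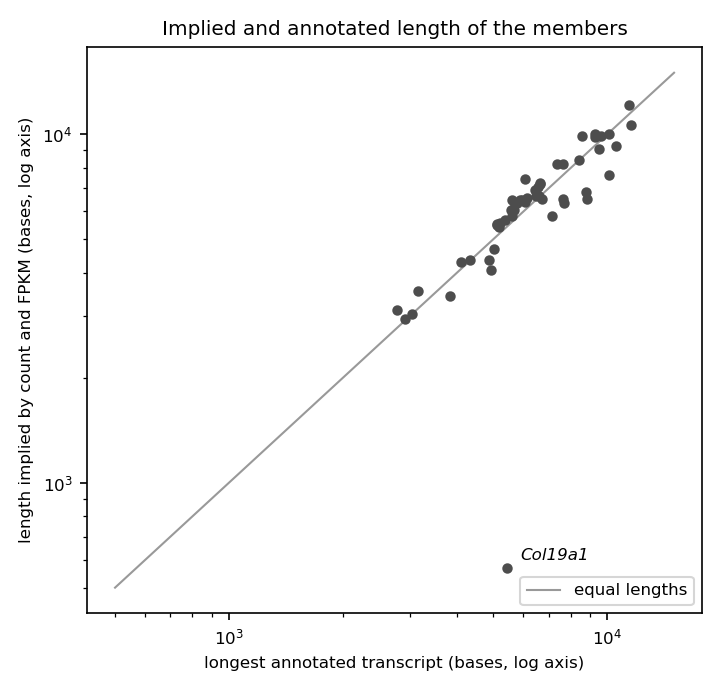
Length implied by count and FPKM (bases, log axis) against the longest annotated transcript (bases, log axis), 1 point per gene shown, with a line of equal lengths. Col19a1, at 570 implied and 5441 annotated bases, is the 1 point far below the line.

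With AVE0991, no collagen or laminin passed the test. edgeR's quasi-likelihood test with Benjamini-Hochberg adjustment over 20363 genes called 7 genes higher and 169 lower, 0.864% of the genes tested (0.0344% higher and 0.83% lower). Of the 54 members tested, 0 were called higher and 0 lower. The 1 member not tested for low counts was Col10a1, the collagen of growth-plate cartilage, with 0.12, 0 and 0 CPM in AVE0991 libraries and 0.11, 0.02 and 0.04 CPM in vehicle libraries. At an unadjusted p under 0.05, 10 members were higher (Col1a1, Col1a2, Col2a1, Col5a3, Col9a2, Col18a1, Col23a1, Lama1, Lamb2 and Lamb3) and 2 lower (Col25a1 and Lama3). These 12 are 22.2% of the members tested, against 23.6% of all genes, so the share over both directions was near the background. By direction it was not: 10 of 54 members were higher and 2 of 54 lower, against 10.9% and 12.7% of all genes. The share of members was thus above that of all genes among the higher and below it among the lower. Over both directions, the number of members at that p depended on the processing. It was 5 of 54 after a correction for GC content (3078 of 20363 genes). Over the alternatives the lowest number was 2 of 54, without AVE0991 replicate 3 (3389 of 20985 genes). The highest was 17 of 54, without AVE0991 replicate 1 (6491 of 20918 genes). The smallest adjusted p among the members was 0.124, for Lamb3. With DESeq2, which called 11.4% of all genes (4.88% higher and 6.5% lower), 2 members were called higher, Col1a2 and Lamb3. With limma-voom and sample quality weights, which called 5.75% of all genes (2.2% higher and 3.54% lower), 1 was called lower, Col25a1.

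More members had fold changes above 0 than below it, 33 of 54 (61.1%), against 49.3% of all genes tested. The median log2 fold change was 0.09 for the members and -0.01 for all genes tested. In 8 of 54 members (14.8%) the 3 AVE0991 libraries did not overlap with the 3 vehicle libraries, against 30.6% of all genes. The 5 that lay higher in all AVE0991 libraries were Col6a2, Col9a2, Col13a1, Col23a1 and Lamb3, and the 3 that lay lower were Col24a1, Col25a1 and Col26a1. Among all genes 14.3% lay higher and 16.3% lower without overlap.

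**Figure D3:**
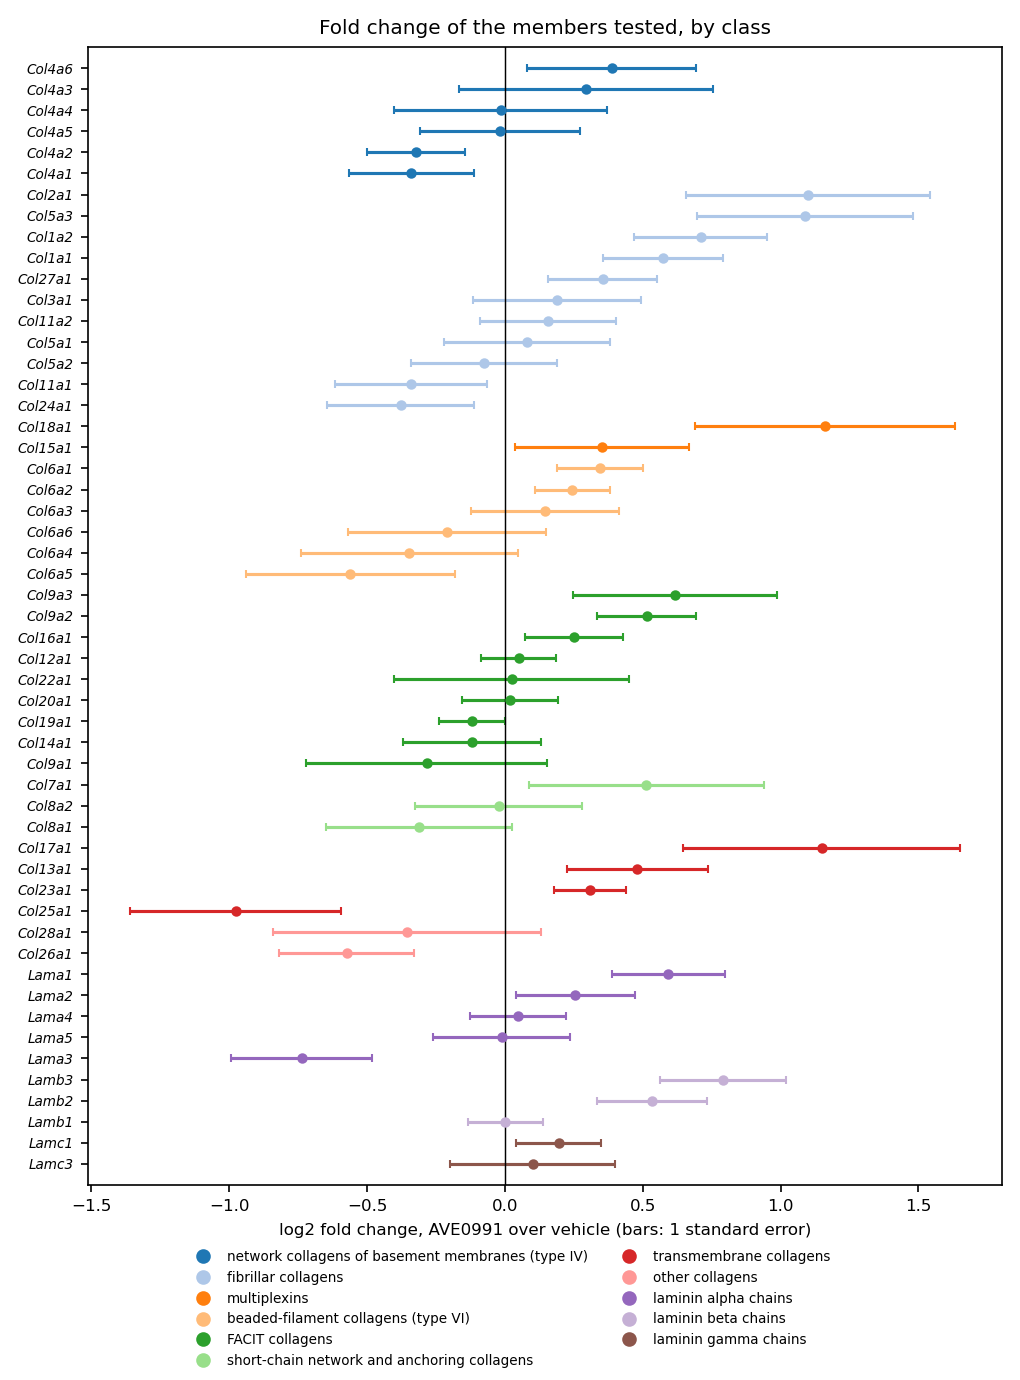
Log2 fold change of AVE0991 over vehicle for 53 of the 54 members tested, grouped by class from the top, with bars of 1 standard error. Col18a1, Col17a1, Col2a1 and Col5a3 lie above 1, and Col25a1 is the lowest at -0.98.

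The AVE0991 libraries were not alike in these genes. In replicate 1, 9 of 54 members (16.7%) lay above all vehicle libraries and 13 (24.1%) below them. In replicate 2, 25 (46.3%) lay above and 12 (22.2%) below, and in replicate 3, 28 (51.9%) lay above and 13 (24.1%) below. In the same 3 libraries 30.6%, 37.1% and 34.7% of all genes lay above all vehicle libraries, and 32.8%, 38.3% and 35.1% lay below them. Replicates 2 and 3 are the libraries with the high cerebellar granule cell markers, whose part in these values was not tested. Without AVE0991 replicate 1, where 11.4% of 20918 genes were called (6.63% higher and 4.76% lower), 9 members were called higher (Col1a1, Col1a2, Col2a1, Col5a3, Col9a2, Col17a1, Col18a1, Lama1 and Lamb2) and 1 lower (Col25a1). Without both AVE0991 replicates 2 and 3, where the 1 AVE0991 library left is assumed to vary like the vehicle libraries, the median log2 fold change of the members was -0.12 and 0 were called.

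The members are rich in guanine and cytosine, a feature their names do not use, with a median GC content of 54.8% in the longest annotated transcript against 49.8% for the genes tested. Fold changes followed GC content among the members about as they did among all genes. On the log2 scale, the median fold change was -0.22 for members under 50% GC (10 genes), and for those of 50 to 55% (17 genes) it was 0.00 and for those of 55% and over (27 genes) 0.35. All genes in the same ranges had medians of -0.15, 0.13 and 0.19. Across the 54 members Spearman's rho of log2 fold change with GC content was 0.542, and across 16864 genes it was 0.499. These are correlations across genes that share the same 6 libraries and are not independent replicates. After a correction for GC content in each library the median of the members was -0.05.

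Type IV collagen, the network collagen of basement membranes, was measured from 6 genes, 2 with fold changes above 0 and 4 below, with a median of -0.02 and 0 called. That median was -0.55 without both AVE0991 replicates 2 and 3, and 0.22 without AVE0991 replicate 1. Its 2 main chains, which share a helix, lay lower on average in AVE0991 libraries. Col4a1 (Entrez gene 12826) stood at 14.4, 22.8 and 16.1 CPM in AVE0991 libraries and at 19.9, 28.4 and 19.0 CPM in vehicle libraries (log2 fold change -0.34, SE 0.23, adjusted p = 0.401). Col4a2 (Entrez gene 12827) stood at 17.2, 21.6 and 16.2 CPM in AVE0991 libraries and at 23.1, 27.2 and 18.5 CPM in vehicle libraries (-0.32, SE 0.18, adjusted p = 0.314). In both genes replicate 2 was the highest library of each group, and the groups overlapped. The ratio of Col4a2 to Col4a1 in FPKM was 1.11, 0.942 and 1.09 in AVE0991 libraries and 0.997, 0.927 and 0.948 in vehicle libraries. Of 12 endothelial markers 1 had a fold change above 0, their median was -0.22, and their summed level was 86.2, 192.9 and 115.3 CPM in AVE0991 libraries and 122.9, 220.1 and 124.9 CPM in vehicle libraries. The library with the most endothelial marker RNA in each group was thus also the highest for Col4a1 and Col4a2, and the part of these cells was not tested. The other chains were lower in abundance: Col4a5 averaged 6.28 ± 2.37 CPM in AVE0991 and 6.35 ± 0.26 CPM in vehicle libraries, Col4a6, its partner chain, 3.22 ± 0.997 CPM in AVE0991 and 2.46 ± 0.611 CPM in vehicle libraries (0.39, SE 0.31), and Col4a3 and Col4a4, chains of the kidney filter, under 1.5 CPM in every library.

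Col4a1 and Col4a2 lie head to head on opposite strands, and in RefSeq GRCm38.p6 their first 22 bases overlap, so that reads there can be told apart only by strand. They had the closest fold changes of the neighbouring pairs of members. Other members also neighbour each other, and their fold changes were less alike: Col3a1 at 0.19 beside Col5a2 at -0.08, and Col4a6 at 0.39 beside Col4a5 at -0.02. Col6a1 at 0.34 and Col6a2 at 0.24 were a pair with the same sign. Col6a5 also shared its sign with its neighbours Col6a4 and Col6a6, and Col9a1 with Col19a1, whereas Col4a3 and Col4a4 differed in sign.

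Fibrillar collagens were measured from 11 genes, 8 above 0 and 3 below, with a median log2 fold change of 0.19, and 0 were called. The median was -0.15 without both AVE0991 replicates 2 and 3, and 0.43 without AVE0991 replicate 1. The type I chains were higher on average in AVE0991 libraries. Col1a2 (Entrez gene 12843) stood at 37.9, 71.9 and 63.2 CPM in AVE0991 libraries and at 35.1, 40.2 and 30.5 CPM in vehicle libraries (log2 fold change 0.71, SE 0.24, adjusted p = 0.155). Col1a1 (Entrez gene 12842), its partner in the type I helix, stood at 25.8, 43.8 and 37.9 CPM in AVE0991 libraries and at 24.5, 27.9 and 19.9 CPM in vehicle libraries (0.57, SE 0.22, adjusted p = 0.182). AVE0991 replicates 2 and 3 lay above all vehicle libraries in both genes and replicate 1 lay among them, so the groups overlapped. With DESeq2 Col1a2 was called higher (0.72, adjusted p = 0.0495). Without AVE0991 replicate 1 both were called, Col1a2 at 0.94 (adjusted p = 0.0143) and Col1a1 at 0.76 (adjusted p = 0.0342). Without both AVE0991 replicates 2 and 3 they stood at 0.11 and 0.11. Col3a1, the collagen of fine reticular fibres, which is co-expressed with type I collagen by fibroblasts, stood at 4.41, 8.08 and 8.31 CPM in AVE0991 libraries and at 5.11, 8.08 and 5.02 CPM in vehicle libraries (0.19, SE 0.30, adjusted p = 0.741; -0.46 without both AVE0991 replicates 2 and 3).

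Part of the promoter of Col1a2 is shown because Col1a2 had the smallest p of the fibrillar chains. Of the 250 bases before its RefSeq start, these are the 123 in a row that no GENCODE exon covers. They are chr6:4505370-4505492 on the plus strand of GRCm38.p6, with matches to the GC box letters GGGCGG in capitals. The 250 bases also hold 1 match to the CCAAT box letters (CCAAT or ATTGG), which does not lie within the 123 shown.
Col1a2: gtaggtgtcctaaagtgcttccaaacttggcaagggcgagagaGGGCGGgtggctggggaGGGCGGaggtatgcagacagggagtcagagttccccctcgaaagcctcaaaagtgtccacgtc

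Fibroblast and meningeal markers are given beside these chains, since fibroblasts are their known source. Of 14 such markers 10 had fold changes above 0 with a median of 0.40, and 0 were called. Their summed level was 346.6, 390.1 and 409.8 CPM in AVE0991 libraries and 281.7, 374.6 and 284.3 CPM in vehicle libraries. Fmod, a proteoglycan that binds collagen fibrils, stood at 32.2, 27.4 and 37.5 CPM in AVE0991 libraries and at 21.0, 24.2 and 16.1 CPM in vehicle libraries (0.66, SE 0.18, adjusted p = 0.118). Ogn, another small proteoglycan of fibroblasts, went the other way, at 0.917, 1.28 and 0.885 CPM in AVE0991 libraries and 3.35, 2.49 and 2.53 CPM in vehicle libraries (-1.44, SE 0.25, adjusted p = 0.0571). The part of these cells in the type I values was not tested.

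Less abundant fibrillar chains had larger fold changes with larger errors. Col5a3, a chain that takes part in fibril assembly, stood at 1.70, 4.68 and 3.75 CPM in AVE0991 libraries and at 1.21, 1.82 and 1.71 CPM in vehicle libraries (1.09, SE 0.39, adjusted p = 0.165). Col2a1, the main cartilage collagen, which was singled out after its values were seen, stood at 1.36, 4.81 and 3.84 CPM in AVE0991 libraries and at 1.499, 1.487 and 1.673 CPM in vehicle libraries (1.10, SE 0.44, adjusted p = 0.199). In both genes AVE0991 replicates 2 and 3 were the high libraries, and without both of them Col5a3 stood at 0.11 and Col2a1 at -0.19. The remaining fibrillar chains (Col5a1, Col5a2, Col11a1, Col11a2, Col24a1 and Col27a1) had log2 fold changes from -0.38 to 0.35.

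**Figure D4:**
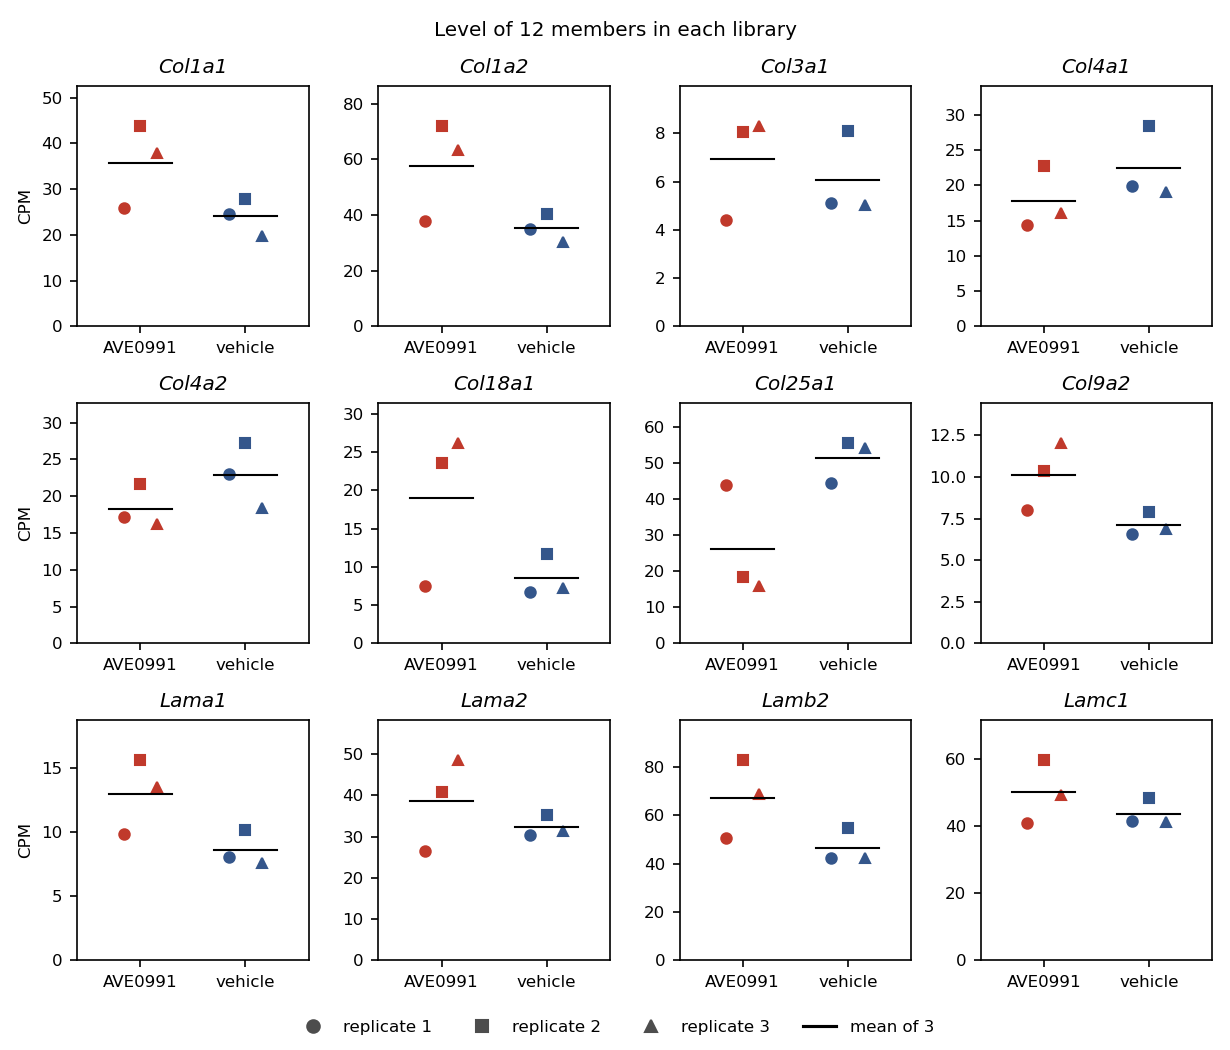
Level in CPM of 12 members in each library, AVE0991 left of vehicle, with symbols for the replicate numbers and a line at the mean of 3 libraries. For Col1a1, Col1a2, Col18a1 and Lamb2 AVE0991 replicates 2 and 3 lie above all vehicle libraries and replicate 1 lies with them, and for Col25a1 the same 2 replicates lie far below.

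The fold changes of the type I chains and of the main type IV chains lay on different sides of 0, and their levels were set against each other in each library, a ratio formed after the values were seen. The summed FPKM of Col1a1 and Col1a2 over that of Col4a1 and Col4a2 was 2.27, 3.04 and 3.56 in AVE0991 libraries and 1.499, 1.411 and 1.488 in vehicle libraries. The groups did not overlap, and AVE0991 replicate 1, which lay among the vehicle libraries for type I collagen, also lay above them in this ratio. The exact two-sided permutation test gave p = 0.1, the smallest p that 3 libraries against 3 can give, so this design cannot pass the threshold of 0.05; adjusted by Benjamini-Hochberg over the 10 sums and ratios computed it was 0.429. It was the 1 of the 10 without overlap. Neither that count nor the adjustment allows for its choice after the values were seen. The ratio of Col1a2 to Col1a1 was 1.67, 1.87 and 1.90 in AVE0991 libraries and 1.63, 1.65 and 1.75 in vehicle libraries.

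**Figure D5:**
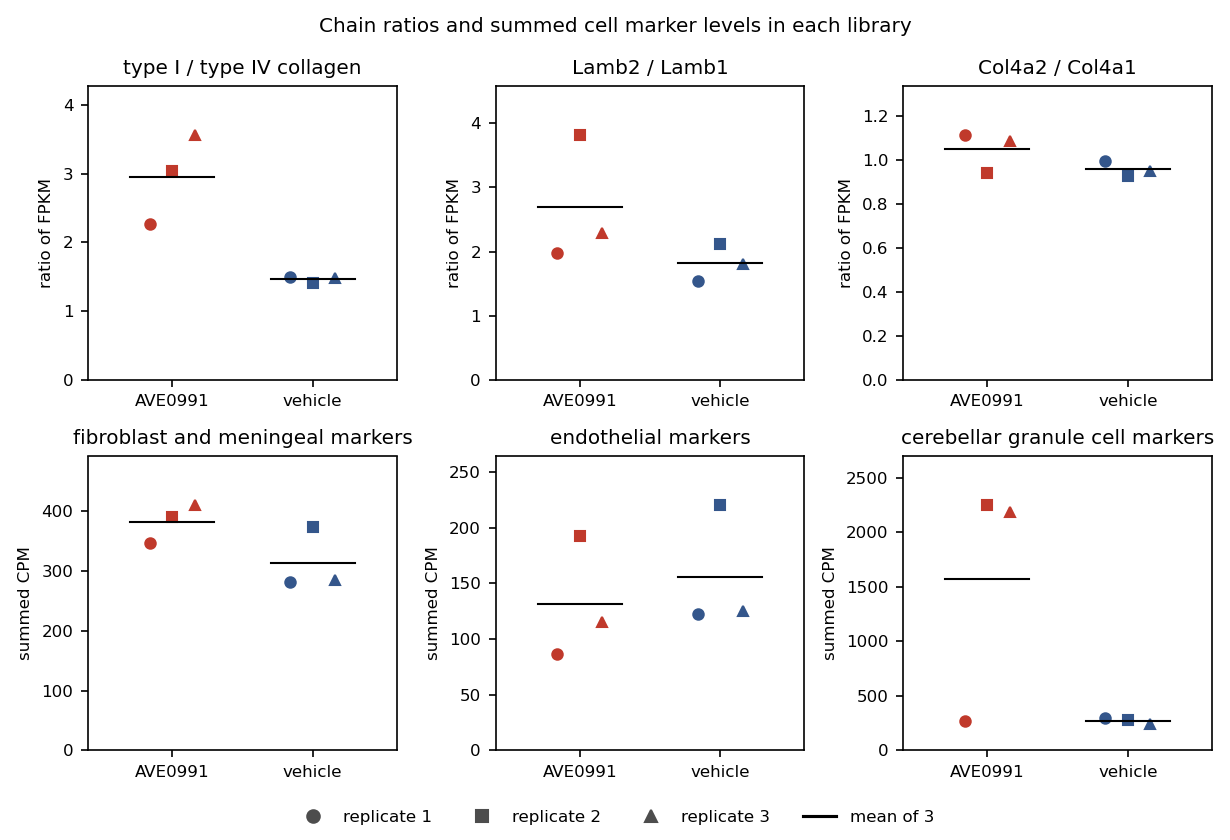
Top, ratios of FPKM in each library for type I over type IV collagen, Lamb2 over Lamb1 and Col4a2 over Col4a1. Bottom, summed CPM of fibroblast and meningeal, endothelial and cerebellar granule cell markers; AVE0991 is left of vehicle, and lines are means of 3 libraries. The ratio of type I to type IV collagen is at least 2.27 in AVE0991 and at most 1.499 in vehicle libraries, and the cerebellar markers are high in AVE0991 replicates 2 and 3.

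The multiplexins Col15a1 and Col18a1 are collagens of basement membrane zones that carry glycosaminoglycan chains, and a fragment of Col18a1 is endostatin, an inhibitor of vessel growth. Col18a1 had the largest fold change of the members tested, but not in every library. It stood at 7.46, 23.5 and 26.2 CPM in AVE0991 libraries and at 6.66, 11.6 and 7.23 CPM in vehicle libraries (log2 fold change 1.16, SE 0.47, adjusted p = 0.202). It was called higher without AVE0991 replicate 1 (1.55, adjusted p = 0.0193), and it stood at -0.18 without both AVE0991 replicates 2 and 3. Col15a1 stood at 2.57, 5.22 and 4.27 CPM in AVE0991 libraries and at 2.34, 3.89 and 3.21 CPM in vehicle libraries (0.35, SE 0.31, adjusted p = 0.53; -0.28 without both AVE0991 replicates 2 and 3). Choroid plexus also expresses Col18a1. The summed level of 10 choroid plexus markers was 391, 576.5 and 393 CPM in AVE0991 libraries and 144, 1429 and 805 CPM in vehicle libraries. Among the vehicle libraries the markers and Col18a1 ran in the same order, and among the AVE0991 libraries they did not. The part of choroid plexus RNA in the Col18a1 values was not tested.

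Type VI collagen, which forms beaded filaments next to basement membranes, was measured from 6 genes with 3 above 0, 3 below and 0 called. Col6a1 stood at 16.1, 11.9 and 16.0 CPM in AVE0991 libraries and at 12.4, 12.2 and 10.2 CPM in vehicle libraries (0.34, SE 0.16, adjusted p = 0.236). Col6a2 stood at 14.1, 13.3 and 14.6 CPM in AVE0991 libraries and at 13.2, 12.3 and 9.94 CPM in vehicle libraries (0.24, SE 0.13, adjusted p = 0.314). Both chains were high in AVE0991 replicates 1 and 3, unlike type I collagen, and the groups just missed each other in Col6a2. Col6a5, which lies beside Col6a4 and Col6a6 in the genome, had the lowest fold change of the class at -0.56 (SE 0.38) with 2.45 CPM or less in every library.

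The FACIT collagens, which attach to the surface of fibrils, had 9 genes tested, 6 above 0, 3 below and 0 called. Type IX collagen is the FACIT of cartilage and the inner ear and is also transcribed in brain. Col9a2 stood at 8.04, 10.4 and 12.03 CPM in AVE0991 libraries and at 6.55, 7.87 and 6.87 CPM in vehicle libraries, without overlap (0.51, SE 0.18, adjusted p = 0.157). Col9a3 stood at 10.8, 24.5 and 26.6 CPM in AVE0991 libraries and at 9.28, 17.0 and 14.0 CPM in vehicle libraries (0.62, SE 0.37, adjusted p = 0.353). With both AVE0991 replicates 2 and 3 left out, Col9a2 stood at 0.19 and Col9a3 at -0.31. The third chain, Col9a1, was under 0.5 CPM in every library, so the trimer's chains were far from equal in level. Col16a1 stood at 8.46, 9.58 and 6.45 CPM in AVE0991 libraries and at 6.86, 7.38 and 6.35 CPM in vehicle libraries (0.25, SE 0.18, adjusted p = 0.429). The other FACIT chains lay between -0.28 and 0.05.

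Of the short-chain network and anchoring collagens, Col8a1 and Col8a2, chains of vessel wall and corneal endothelium, overlapped widely between groups. Col8a2 stood at 11.8, 14.7 and 11.7 CPM in AVE0991 libraries and at 7.52, 17.98 and 13.3 CPM in vehicle libraries (-0.02, SE 0.30, adjusted p = 0.973), and Col8a1 at 4.05, 5.36 and 3.97 CPM in AVE0991 libraries and 3.04, 7.69 and 5.84 CPM in vehicle libraries (-0.31, SE 0.34, adjusted p = 0.611). In both genes vehicle replicate 2 was the highest and vehicle replicate 1 the lowest of all libraries, the same order as the choroid plexus markers in the vehicle group. Col7a1, the anchoring-fibril collagen of skin, stayed under 0.8 CPM in every library (0.51, SE 0.43). Col26a1 stood at 1.79, 1.39 and 1.66 CPM in AVE0991 libraries and at 2.29, 2.99 and 1.93 CPM in vehicle libraries, without overlap (-0.57, SE 0.24, adjusted p = 0.213). Col28a1 was under 0.3 CPM in every library (-0.36, SE 0.48).

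Col25a1 is a membrane-bound collagen of neurons whose shed ectodomain was isolated from amyloid plaques of Alzheimer's disease brain, where it is known as the collagen-like amyloid plaque component. It had the lowest fold change of the members tested. It stood at 44.0, 18.4 and 15.9 CPM in AVE0991 libraries and at 44.4, 55.5 and 54.2 CPM in vehicle libraries (log2 fold change -0.98, SE 0.38, adjusted p = 0.193). AVE0991 replicates 2 and 3 were low and replicate 1 lay just under the lowest vehicle library, so the groups did not overlap by a narrow margin. limma-voom with quality weights called it lower (-1.41, adjusted p = 0.0398), as did edgeR without AVE0991 replicate 1 (-1.58, adjusted p = 0.00433). Without both AVE0991 replicates 2 and 3 it stood at -0.22 (adjusted p = 0.594). The 2 low libraries are those with 2247 and 2191 CPM of cerebellar granule cell markers. They also had the lowest summed neuron markers, at 5329, 4963 and 4921 CPM in AVE0991 libraries and 5950, 5155 and 5362 CPM in vehicle libraries. Single neuron markers were mixed: 6 of the 11 had fold changes above 0, with a median log2 fold change of 0.15. The part of cerebellar or neuron RNA in the Col25a1 values was not tested.

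The 250 bases before the first base of Col25a1, chr3:130180595-130180844 on the plus strand of GRCm38.p6 (RefSeq), are shown because it was the 1 member called lower by one of the tests run over all 6 libraries. Capitals mark the CCAAT box letters CCAAT and the GC box letters GGGCGG or CCGCCC.
Col25a1: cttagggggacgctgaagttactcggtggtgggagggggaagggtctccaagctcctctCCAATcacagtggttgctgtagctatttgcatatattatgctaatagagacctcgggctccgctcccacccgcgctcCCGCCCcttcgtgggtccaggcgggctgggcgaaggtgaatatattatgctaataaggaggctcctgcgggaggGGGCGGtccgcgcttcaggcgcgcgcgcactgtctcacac

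The other transmembrane collagens lay above 0, and 0 were called. Col23a1 stood at 12.9, 12.1 and 11.5 CPM in AVE0991 libraries and at 11.2, 9.35 and 8.94 CPM in vehicle libraries, without overlap (0.31, SE 0.13, adjusted p = 0.211). Col17a1, a collagen of hemidesmosomes in skin, stood at 0.758, 2.83 and 2.75 CPM in AVE0991 libraries and at 0.75, 0.92 and 1.18 CPM in vehicle libraries (1.15, SE 0.50, adjusted p = 0.224; -0.32 without both AVE0991 replicates 2 and 3). Col13a1, known from the neuromuscular junction and singled out because its groups did not overlap, stood at 1.64, 1.85 and 1.63 CPM in AVE0991 libraries and at 1.54, 1.19 and 0.936 CPM in vehicle libraries (0.48, SE 0.26, adjusted p = 0.298).

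Laminin chains were measured from 11 genes, 8 above 0 and 3 below, with a median log2 fold change of 0.10, and 0 were called. The median was -0.01 without both AVE0991 replicates 2 and 3, and 0.30 without AVE0991 replicate 1. Among the alpha chains, Lama1, a chain of the pial and astrocyte basement membranes, stood at 9.81, 15.6 and 13.6 CPM in AVE0991 libraries and at 8.05, 10.2 and 7.61 CPM in vehicle libraries (0.59, SE 0.21, adjusted p = 0.156). Lama2 stood at 26.4, 40.8 and 48.5 CPM in AVE0991 libraries and at 30.4, 35.2 and 31.3 CPM in vehicle libraries (0.26, SE 0.22, adjusted p = 0.508). AVE0991 replicates 2 and 3 were above all vehicle libraries in both genes, and in Lama2 replicate 1 was below them. Without both replicates 2 and 3 Lama1 stood at 0.20 and Lama2 at -0.28. The endothelial chains Lama4 (0.05, SE 0.17) and Lama5 (-0.01, SE 0.25) lay on either side of 0 depending on the processing. Beside the 12 astrocyte markers, 11 of which had fold changes above 0 with a median of 0.63, Lama1 and Lama2 lay on the same side of 0, and the part of astrocyte RNA in these values was not tested.

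Among the beta chains, beta-2 is known from synaptic and vessel basement membranes. Lamb2 (Entrez gene 16779) stood at 50.5, 82.8 and 68.6 CPM in AVE0991 libraries and at 42.2, 54.8 and 42.5 CPM in vehicle libraries (0.53, SE 0.20, adjusted p = 0.178), with overlap through AVE0991 replicate 1, and stood at 0.13 without both AVE0991 replicates 2 and 3. Lamb1, the other abundant beta chain, stood at 26.3, 22.5 and 30.9 CPM in AVE0991 libraries and at 28.3, 26.9 and 24.4 CPM in vehicle libraries (0.00, SE 0.14, adjusted p = 0.995). The ratio of Lamb2 to Lamb1 in FPKM was 1.98, 3.82 and 2.30 in AVE0991 libraries and 1.55, 2.11 and 1.81 in vehicle libraries, with overlap (exact two-sided permutation p = 0.2, adjusted 0.429). Lamc1, the gamma chain of most brain laminins, stood at 41.1, 59.7 and 49.4 CPM in AVE0991 libraries and at 41.4, 48.5 and 41.3 CPM in vehicle libraries (0.20, SE 0.15, adjusted p = 0.478; -0.08 without both AVE0991 replicates 2 and 3). Lamc3, a gamma chain found in retina and cortex, stood at 8.65, 15.5 and 12.2 CPM in AVE0991 libraries and at 8.46, 15.7 and 9.68 CPM in vehicle libraries (0.10, SE 0.30, adjusted p = 0.867; -0.38 without both AVE0991 replicates 2 and 3).

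Lama3 and Lamb3, an alpha and a beta chain of epithelial basement membranes, lay on opposite sides of 0. Lamb3 had the smallest p of all members and was the 1 laminin whose groups did not overlap, at 2.31, 2.00 and 2.11 CPM in AVE0991 libraries and 1.26, 0.998 and 1.45 CPM in vehicle libraries (0.79, SE 0.23, edgeR adjusted p = 0.124; DESeq2 0.81, adjusted p = 0.0287). All 3 AVE0991 libraries lay above all vehicle libraries. Without both AVE0991 replicates 2 and 3 its log2 fold change was 0.91 (adjusted p = 0.37), and without AVE0991 replicate 1 it was 0.74 (adjusted p = 0.118). Lama3 stood at 4.99, 3.44 and 3.45 CPM in AVE0991 libraries and at 8.22, 6.77 and 4.82 CPM in vehicle libraries (-0.74, SE 0.26, adjusted p = 0.156), with AVE0991 replicate 1 just above the lowest vehicle library, and stood at -0.40 without both AVE0991 replicates 2 and 3.

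The upstream sequence of Lamb3 is shown because Lamb3 had the smallest p of the members. These are the 249 bases before the more upstream of its RefSeq starts that no GENCODE exon covers, chr1:193301744-193301992 on the plus strand of GRCm38.p6, and none of the motifs searched matched in them, so they hold no capitals.
Lamb3: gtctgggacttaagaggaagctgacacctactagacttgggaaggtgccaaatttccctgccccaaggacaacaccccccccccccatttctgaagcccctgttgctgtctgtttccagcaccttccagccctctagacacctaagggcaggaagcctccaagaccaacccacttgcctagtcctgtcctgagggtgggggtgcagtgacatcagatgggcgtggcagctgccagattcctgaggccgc

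Genes that act on or bind collagens and laminins were described from 6 lists. Across these lists, of 10 to 18 genes tested each, 1 gene was called. Of all genes tested 0.864% were called (0.83% lower), so the 1 call is not read as an excess. It was Tgfbr1, the type I receptor for TGF-beta, a cytokine that induces collagen genes. Tgfbr1 fell in all AVE0991 libraries, at 14.2, 13.0 and 13.3 CPM, and stood at 24.6, 20.3 and 24.3 CPM in vehicle libraries (log2 fold change -0.77, SE 0.11, adjusted p = 0.043). The call was lost in 12 of 19 alternatives, at adjusted p = 0.0508 to 0.364: with RLE size factors, with the length correction, with circular RNA rows in the fit, with the GC correction (-0.40, adjusted p = 0.238), with the replicate number as a block (adjusted p = 0.123), with both of these, without any 1 library other than AVE0991 replicate 1, and without both AVE0991 replicates 2 and 3. In the same list 10 of 16 genes tested were above 0, with a median of 0.11. Fn1, fibronectin, stood at 117.1, 153.7 and 138.7 CPM in AVE0991 libraries and at 88.2, 118 and 74.4 CPM in vehicle libraries (0.55, SE 0.19, adjusted p = 0.158).

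Enzymes that modify and fold collagen chains had 15 of 18 genes above 0, a median of 0.17 and 0 called. Fkbp10, a chaperone of type I procollagen, stood at 12.8, 15.7 and 14.5 CPM in AVE0991 libraries and at 10.2, 10.0 and 9.80 CPM in vehicle libraries (0.51, SE 0.12, adjusted p = 0.0897), and P3h3, of the prolyl 3-hydroxylase family, had a log2 fold change of 0.68 (SE 0.22, adjusted p = 0.141). Of the procollagen-processing and cross-linking genes 8 of 14 were above 0, with a median of 0.06 and 0 called. Bmp1, the procollagen C-proteinase, stood at 25.2, 37.4 and 45.4 CPM in AVE0991 libraries and at 22.5, 19.1 and 19.9 CPM in vehicle libraries (0.81, SE 0.21, adjusted p = 0.112). Its relative Tll1 stood at 4.65, 19.2 and 25.7 CPM in AVE0991 libraries and at 4.08, 3.41 and 4.02 CPM in vehicle libraries (2.10, SE 0.57, adjusted p = 0.116). Both were highest in AVE0991 replicates 2 and 3, and in both AVE0991 replicate 1 was still above the vehicle libraries. Without both replicates 2 and 3 Bmp1 stood at 0.30, Tll1 at 0.29 and P3h3 at 0.14.

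Of the basement membrane partners 6 of 10 were above 0, with a median of 0.14 and 0 called. Ntn4, a netrin that binds laminin networks, stood at 7.78, 19.1 and 21.0 CPM in AVE0991 libraries and at 6.22, 6.56 and 7.37 CPM in vehicle libraries (1.25, SE 0.36, adjusted p = 0.123). Npnt, an integrin ligand of basement membranes, stood at 9.29, 9.25 and 10.9 CPM in AVE0991 libraries and at 15.4, 12.1 and 14.2 CPM in vehicle libraries (-0.50, SE 0.14, adjusted p = 0.114). Of the receptors 9 of 14 were above 0, with a median of 0.16 and 0 called. Itgb1, the beta-1 integrin subunit shared by the collagen and laminin receptors, stood at 31.3, 34.0 and 33.8 CPM in AVE0991 libraries and at 38.9, 44.2 and 40.6 CPM in vehicle libraries (-0.32, SE 0.09, adjusted p = 0.127). Itga10, a collagen-binding alpha subunit, had a log2 fold change of 0.64 (SE 0.22, adjusted p = 0.155). Of the matrix metalloproteinases and their inhibitors 8 of 14 were above 0, with a median of 0.13 and 0 called. Mmp16, a membrane-bound metalloproteinase, stood at 35.2, 26.7 and 36.4 CPM in AVE0991 libraries and at 80.8, 51.2 and 55.7 CPM in vehicle libraries (-0.93, SE 0.21, adjusted p = 0.0868). Timp4, a metalloproteinase inhibitor, stood at 42.0, 110.7 and 143.1 CPM in AVE0991 libraries and at 30.1, 35.5 and 41.1 CPM in vehicle libraries (1.47, SE 0.42, adjusted p = 0.122). Ntn4 stood at 0.22 and Timp4 at 0.25 without both AVE0991 replicates 2 and 3.

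RefSeq promoter windows of 250 bases were found for 40 of the 55 members, 44 windows in all, and searched on both strands. The GC box (GGGCGG, or CCGCCC on the other strand) was in 24 of 44 windows (54.5%), against 32.7% of 32851 windows of all genes. The CCAAT box (CCAAT or ATTGG) was in 14 (31.8%), against 33.8%, and the TATA box letters (TATAAA or TTTATA) were in 5 (11.4%), against 12.4%. The median GC content of the windows was 59% for the members and 52.4% for all genes, so the share with GC boxes was not matched for base composition. Matches of CCAAT and GC box letters can share bases, and a match is a match of letters only.

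In the authors' deposited table, made with DESeq2 per the file headers, 0 of 55 members had a q-value under 0.05, against 4.4% of 36065 gene rows. The smallest q in the authors' deposited table was 0.0562 for Lamb3, with a log2 fold change of 0.82, followed by 0.0811 for Col1a2 (0.73) and 0.0867 for Col5a3 (1.10). Of the 55 members 13 had an unadjusted DESeq2 p-value under 0.05 in the authors' deposited table. The share of all gene rows at that p was not computed, so the count is not read as an excess. In the edgeR test above, which is another test over fewer genes, 23.6% of all genes and 22.2% of the members had an unadjusted p under 0.05.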

How the data were processed

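Per the labels' protocols, libraries were made from total RNA after ribosomal depletion, with dUTP marking one cDNA strand, and sequenced as DNA nanoballs. Reads were aligned with HISAT to mm9, per the submitters' processing notes; the sources used here do not give how reads were counted, with or without strand and on which annotation. The authors deposited estimated counts and FPKM values for 36210 gene rows in each of the 6 libraries, with no pooling; the unit FPKM follows from the values themselves. In another table the authors deposited a log2 fold change, p-value and q-value per row, from DESeq2 per the file headers.

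Rounded estimated counts of gene rows were tested with edgeR 4.0.16 in R 4.3.3 (filterByExpr, TMM, robust quasi-likelihood test, AVE0991 over vehicle, no covariates), adjusted by Benjamini-Hochberg over all 20363 genes tested and called at an adjusted p under 0.05. The test was tested on simulated counts. Standard errors are the size of the log2 fold change over the root of the F statistic. CPM uses TMM library sizes. The prior degrees of freedom had a median of 2.93, and the common coefficient of variation was 24.7%. The 8202 gene rows without a gene name held 7.45% to 10.5% of the counts and stayed in the fit, since they are transcripts. Depth was 44583274 to 50066615 counts per library. Chi-square per gene was at least 16.4 between any 2 libraries, so none was a copy of another. Alternatives were DESeq2 1.42.0, limma 3.58.1 (voom with quality weights, and on log2(FPKM + 0.1) and log2(FPKM + 1)), other size factors and filters, a replicate block, GC and length corrections and leaving out libraries; leaving out both AVE0991 replicates 2 and 3 was added after seeing the data. GC content and length come from the longest GENCODE M21 transcript, found for 82.8% of the genes tested. As that annotation and the RefSeq tables are GRCm38 and the labels name mm9, they served only for names, neighbours, GC content, length and promoter sequences.

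The members and lists were chosen with earlier results of these data known. Members named are, in each class, the 3 with the smallest p and the 2 with the highest FPKM, with Col4a1, Col4a2, Lama1, Lama2, Lama4, Lama5, Lamb1, Lamb2, Lamc1, Col1a1, Col1a2, Col3a1, Col18a1 and Col25a1 in any case, and of each other list every gene called and the 2 with the smallest p; 1 member is not reported here by name and enters counts, sums and medians only, and others are named only as having been singled out, or in counts. In the fibroblast, endothelial, mural, choroid plexus, cerebellar granule cell, astrocyte, neuron, oligodendrocyte, precursor and microglia lists 0 genes were called.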

Additional observations from a re-analysis of the deposited data

How the results depend on the processing

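Of the 19 alternatives, members were called higher by DESeq2 (2 members) and without AVE0991 replicate 1, lower by limma-voom with quality weights (1 member) and without AVE0991 replicate 1, and otherwise by none; without single libraries the counts of members ranged from 0 to 9 higher and from 0 to 1 lower. Counts over all genes moved far more. Against 7 higher and 169 lower they were 994 and 1324 with DESeq2, 449 and 721 with limma-voom, 58 and 379 with no low-count filter, 18 and 328 among genes averaging 1 CPM or more, 1 and 1 with gene and circular RNA rows in one fit, 1 and 0 after the GC correction, and 0 and 0 without both AVE0991 replicates 2 and 3. Higher genes numbered 13 after the length correction, and lower genes 287 and 310 by limma on log2(FPKM + 0.1) and log2(FPKM + 1). Without single libraries 0 to 1386 genes were higher and 0 to 995 lower; all libraries except AVE0991 replicate 1 gave 0 and 0 when left out. The cause was not tested. With the replicate number as a block 0 genes were called higher and 0 lower, and the same held for the block with the GC correction. As 0 members were called in the main fit, the block had no call of a member to end. It ended the edgeR call of Tgfbr1 (adjusted p = 0.123). The deviations of same-numbered libraries correlated at -0.02, 0.09 and -0.35. Pairing by number was not seen in these values, and 3 libraries per group are too few to exclude it.

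Of the 34 named members 17 kept their sign in all 19 alternatives. Without both AVE0991 replicates 2 and 3 the log2 fold change turned to -0.28 for Col15a1, -0.32 for Col17a1, -0.18 for Col18a1, 0.023 for Col19a1, 0.31 for Col28a1, -0.46 for Col3a1, -0.24 for Col4a6, -0.11 for Col7a1, -0.31 for Col9a3, -0.28 for Lama2, -0.012 for Lama4, -0.0024 for Lamb1, -0.083 for Lamc1 and -0.38 for Lamc3. After the GC correction it was -0.035 for Lama4, -0.15 for Lamb1 and -0.11 for Lamc3, and -0.033, -0.16 and -0.097 with the replicate block as well. With the replicate block alone it was 0.054 for Col8a2, 0.014 for Lama5 and -0.0075 for Lamb1. By limma on log2(FPKM + 0.1) it was -0.090 for Lama4, 0.0034 for Lama5 and -0.086 for Lamb1, and on log2(FPKM + 1) -0.056 for Lama4 and -0.071 for Lamb1. Lama5 was 0.0017 by DESeq2 and by RLE size factors, 0.0051 with no filter and 0.11 after the length correction, and Lamb1 was -0.023 among genes averaging 1 CPM or more and -0.016 in the fit with circular RNA rows. Without single libraries signs turned for Col8a1 (-0.58 to 0.0065), Col8a2 (-0.27 to 0.29), Lama4 (-0.068 to 0.15), Lama5 (-0.19 to 0.28), Lamb1 (-0.12 to 0.11) and Lamc3 (-0.11 to 0.42).

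Depth limits the low members: Col28a1 and Col9a1 had under 0.5 CPM in every library, and Col10a1 could not be tested.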

Other observations

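Some chains known as partners in 1 protein were far apart in level. In FPKM, Col9a3 was 38.8, 84.0 and 151.0 times Col9a1 in AVE0991 libraries and 25.9, 42.4 and 74.0 times it in vehicle libraries. Col6a2 and Col6a1 were close to equal, with ratios of 0.927, 1.18 and 0.961 in AVE0991 libraries and 1.13, 1.06 and 1.02 in vehicle libraries. Lama2 over the sum of Lama4 and Lama5 was 1.17, 1.63 and 1.95 in AVE0991 libraries and 1.40, 1.16 and 1.51 in vehicle libraries, with overlap.

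Mural cells, the pericytes and smooth muscle cells that share the vascular basement membrane, had 3 of 12 markers with a fold change above 0. Their median was -0.19 on the log2 scale, and their summed level was 162.8, 267.2 and 192.5 CPM in AVE0991 libraries and 171.2, 248.8 and 172.7 CPM in vehicle libraries. Oligodendrocyte markers (4 of 9 above 0) summed to 5616, 11990 and 5979 CPM in AVE0991 libraries and 3725, 8007 and 8087 CPM in vehicle libraries, precursor markers (2 of 6) to 348.6, 383.2 and 274.3 CPM in AVE0991 libraries and 310.7, 364.9 and 384.9 CPM in vehicle libraries, and microglia markers (4 of 8) to 467.0, 325.3 and 392.7 CPM in AVE0991 libraries and 415.8, 359.0 and 384.9 CPM in vehicle libraries. The medians of these 3 lists were -0.06, -0.15 and -0.01.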
